A study of Mus musculus with 12 samples.

Results

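The genes described here are 8 very large protein-coding genes of 3 families, taken by name from the 20620 gene rows of the count table. Pkhd1, Pkhd1l1, Csmd1 and Lrp1b were selected on their RNA and footprint counts, because these were higher in Mael-/- testes of these same libraries, so their genotype difference is given as a description and carries no test. Csmd2, Csmd3, Lrp1 and Lrp2 are their paralogs, taken whatever their values, and were tested. RNA and ribosome footprints, the fragments of mRNA that ribosomes shield from nuclease, had been sequenced from whole testes of C57BL/6 mice at postnatal day 16. The groups were Mael+/- and Mael-/- RNA and Mael+/- and Mael-/- footprints, with 3 replicates in each of the 4 groups. All 12 libraries came from extracts made with cycloheximide, which stops elongating ribosomes, and the controls carried 1 mutant Mael allele. Mael encodes Maelstrom, a protein of the pathway that makes piRNAs, the small RNAs that silence retrotransposons such as LINE-1 in male germ cells. Nothing in the labels says whether replicates were separate animals, so the spread between them may be partly technical. In whole testes a gain of RNA per cell cannot be told apart from a gain of cells of a type.

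Pkhd1 encodes fibrocystin, a receptor-like protein of the primary cilium in kidney tubules and bile ducts, whose loss causes recessive polycystic kidney disease. Pkhd1l1 encodes fibrocystin-L, a relative found in the surface coat of hair cell stereocilia. Csmd1, Csmd2 and Csmd3 encode membrane proteins built from CUB and sushi domains, best known from the brain, and CSMD1 restrains complement. Lrp1, Lrp1b and Lrp2 encode endocytic receptors of the LDL receptor family. LRP1 takes up apolipoprotein E and protease complexes in many cell types, LRP2 (megalin) retrieves filtered proteins in the kidney proximal tubule, and LRP1B is best known from neurons and as a gene often deleted in tumours.

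By RefSeq annotation of GRCm38, the build of the counts, the 8 genes are alike in their mRNA and unlike in their extent in the genome. Their coding sequences ran from 10.7 kb (Csmd1) to 13.98 kb (Lrp2), against a median of 1.23 kb over 20410 coding genes. Lrp1b, at chr2:40595290-42653598 on the minus strand, spans 2058 kb with 91 exons and was the fifth longest of those genes. Csmd1, at chr8:15892538-17535385 on the minus strand, spans 1643 kb with 70 exons and ranked 8. Pkhd1, at chr1:20057779-20618082 on the minus strand, spans 560 kb with 67 exons. Pkhd1l1, at chr15:44457396-44601376 on the plus strand, has 78 exons within 144 kb. This is the shortest extent of the 4 picked genes, yet longer than 92.7% of coding genes, whose median span was 18.07 kb. Among the paralogs, Csmd3 (chr15:47580638-48792558, minus strand) spans 1212 kb and Csmd2 (chr4:127986505-128567660, plus strand) 581 kb. Lrp2 (chr2:69424335-69586029, minus strand) spans 162 kb, and Lrp1 (chr10:127538157-127621148, minus strand) packs 89 exons into 82.99 kb. The picked genes were low in GC over the whole gene, from 36.4% in Pkhd1l1 and Lrp1b to 40.3% in Csmd1, against a median of 45.6%. Their paralogs were on both sides of that median, at 35.2% in Csmd3, 42.5% in Lrp2, 48.0% in Csmd2 and 53.4% in Lrp1. The soft-masked (repeat) share of the gene was 40.5% in Pkhd1, 35.1% in Lrp1b, 29.2% in Pkhd1l1 and 26.7% in Csmd1. It was 36.8% in Csmd3 and 16.6 to 23.2% in the other paralogs, against a median of 21.5%.

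A read can be credited to the wrong paralog where both hold the same bases. The longest spliced RefSeq mRNAs of each family were therefore compared word by word at 28 bases, the low end of footprint sizes. Only Csmd1 and Csmd3 shared any such word, 17 of the 14251 words of Csmd1, and no pair shared a word of 75 bases. The shared words form 1 run of 44 bases. In Csmd1 it covers the end of exon 21 (chr8:16196080-16196113) and the start of exon 22 (chr8:16190083-16190092), and in Csmd3 the end of exon 22 (chr15:47947979-47948012) and the start of exon 23 (chr15:47914096-47914105), minus strand in both. The other pairs shared runs of at most 25 bases, and matches with mismatches were not searched. The run is printed because it is the only exact match of footprint length found between these mRNAs:
Csmd1 and Csmd3: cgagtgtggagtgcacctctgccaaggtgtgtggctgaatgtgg

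RefSeq start-site windows of 300 bases (250 before and 50 after the start, GRCm38.p6) were matched for 3 of the 8 genes, Pkhd1, Lrp1 and Lrp2. The window of Pkhd1, at chr1:20618008-20618307 on the minus strand, held 4 CpG dinucleotides and 43.3% GC, which placed it above 31.4% of 32851 windows in CpG number. The windows of the paralog receptors were denser, with 16 CpG in Lrp1 (chr10:127621099-127621398, minus strand) and 20 in Lrp2 (chr2:69585980-69586279, minus strand), against a median of 7. Both held the letters GGGCGG or their reverse complement CCGCCC, the GC box, which 35.7% of windows held, and the window of Pkhd1 did not. None of the 3 held the TATA box letters TATAAA, which 13.6% of all windows held on either strand. They also lacked the E-box CACGTG, held by 7.15% of windows, and the CCAAT box, held by 37.4%. The windows are shown, with CG in capitals, because they set the start of a picked gene, Pkhd1, beside those of the relatives of another picked gene, Lrp1b, that were read in both genotypes:
Pkhd1: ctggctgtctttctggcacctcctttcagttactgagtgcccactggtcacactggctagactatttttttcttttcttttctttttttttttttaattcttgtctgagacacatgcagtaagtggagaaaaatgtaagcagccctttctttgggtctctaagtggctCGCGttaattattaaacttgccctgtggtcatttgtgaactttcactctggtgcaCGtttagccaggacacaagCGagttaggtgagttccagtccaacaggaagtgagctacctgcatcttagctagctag
Lrp1: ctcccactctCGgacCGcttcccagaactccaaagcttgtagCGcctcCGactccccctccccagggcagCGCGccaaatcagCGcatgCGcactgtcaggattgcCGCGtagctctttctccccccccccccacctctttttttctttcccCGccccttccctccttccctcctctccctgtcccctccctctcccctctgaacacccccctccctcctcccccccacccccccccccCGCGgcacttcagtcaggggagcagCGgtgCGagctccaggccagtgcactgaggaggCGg
Lrp2: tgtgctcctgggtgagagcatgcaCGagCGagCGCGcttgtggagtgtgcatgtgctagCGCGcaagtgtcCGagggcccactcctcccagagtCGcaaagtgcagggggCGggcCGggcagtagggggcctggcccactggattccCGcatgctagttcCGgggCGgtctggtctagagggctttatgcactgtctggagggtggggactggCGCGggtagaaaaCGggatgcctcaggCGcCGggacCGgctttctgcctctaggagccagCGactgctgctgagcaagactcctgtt

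Gene counts summed to between 13697267 and 27462358 per RNA library and between 7609932 and 13233565 per footprint library. Mael itself had 5045, 4314 and 3800 counts in the Mael+/- RNA libraries and 1, 2 and 0 in the Mael-/- ones, as labelled. Markers of Sertoli cells summed to between 2984 and 3614 CPM (a gene's count scaled by the library's gene total and by its TMM factor, which evens out composition) in RNA, and those of spermatogonia to between 1577 and 1949 CPM. The 15 pachytene spermatocyte markers summed to 669.6, 213.8 and 256.4 CPM in Mael+/- RNA and to 221.3, 219.6 and 190.2 CPM in Mael-/- RNA, and to 709.8, 175 and 228.6 against 169.8, 167.4 and 161.4 CPM in footprints. Mael+/- replicate 1 stood apart in both assays, and the fitted log2 fold changes of the 8 genes are also given without it.

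The 4 picked genes were nearly silent in Mael+/- testes and were read in every Mael-/- library. Pkhd1 RNA was at 0.564, 1.03 and 0.720 CPM (13, 28 and 19 counts) in Mael+/- replicates 1 to 3 and at 5.79, 7.54 and 4.99 CPM (80, 152 and 137 counts) in Mael-/- replicates. Its footprints were at 0.744, 0.774 and 0.195 CPM in Mael+/- and at 5.69, 6.99 and 4.38 CPM in Mael-/- testes. The lowest Mael-/- library lay above the highest Mael+/- library in both assays, which was so for each of the 4 picked genes and for 4.77% of all genes tested in RNA and 4.19% in footprints. The fitted log2 fold change of Pkhd1 was 2.96 (SE 0.28, n = 3 per genotype) in RNA and 3.34 (SE 0.40) in footprints, or 7.81-fold and 10.1-fold.

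Pkhd1l1, the other fibrocystin gene, was at 0.434, 0.623 and 0.682 CPM in Mael+/- RNA and at 7.82, 7.39 and 6.08 CPM in Mael-/- RNA. In footprints it had 5, 2 and 7 counts in Mael+/- libraries against 112, 81 and 74 in Mael-/- libraries, or 8.49, 8.09 and 8.76 CPM. The Mael-/- footprint values lay close together, with an SD of 0.338 CPM around a mean of 8.45 (n = 3). Its log2 fold change was 3.59 (SE 0.25) in RNA and 4.02 (SE 0.30) in footprints. In both assays Pkhd1l1 was thus further from its Mael+/- level than Pkhd1, by 0.62 and 0.68 on the log2 scale, and no test was made of this difference. In footprints its size depended on single libraries, with Pkhd1 minus Pkhd1l1 at -0.16 without Mael+/- replicate 2, at -0.41 without Mael+/- replicate 1 and at -1.44 without Mael+/- replicate 3. In RNA it was -0.41 without Mael+/- replicate 2.

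Csmd1 RNA was at 0.174, 0.293 and 0.341 CPM (4, 8 and 9 counts) in Mael+/- and at 3.47, 3.97 and 2.69 CPM (48, 80 and 74 counts) in Mael-/- testes. Its footprints were at 0.531, 1.16 and 0.878 CPM in Mael+/- and at 4.09, 5.99 and 4.02 CPM in Mael-/- testes. Here too the genotypes did not overlap in either assay. The log2 fold change was 3.60 (SE 0.33) in RNA, or 12.1-fold, and 2.46 (SE 0.34) in footprints, or 5.50-fold. Csmd1 was the only picked gene with clearly more footprint than RNA CPM in Mael+/- testes, 0.857 ± 0.316 against 0.269 ± 0.0863 CPM (SD, n = 3), although 5, 9 and 9 footprint counts lie behind the first value. The paralogs Csmd2 (1.01 against 0.460 CPM), Lrp1 (911.8 against 479.6 CPM) and Lrp2 (14.1 against 9.05 CPM) also had more footprint than RNA CPM there.

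Lrp1b was the rarest of the 4 in Mael+/- testes, with 0, 4 and 2 RNA counts and 1, 1 and 0 footprint counts. In Mael-/- testes it had 25, 67 and 71 RNA counts (1.81, 3.32 and 2.58 CPM) and 24, 25 and 13 footprint counts (1.82, 2.50 and 1.54 CPM). Summed over replicates, the ratio of Mael-/- to Mael+/- was 33.9 in RNA (95% interval from counting error alone 15.2 to 93.7) and 26.8 in footprints (7.12 to 226.5). The fitted log2 fold changes were 4.97 (SE 0.54) and 4.52 (SE 0.61). They rest on few Mael+/- counts, and the value was 5.82 in RNA without Mael+/- replicate 2 and 3.93 in footprints without Mael+/- replicate 3.

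**Figure D1:**
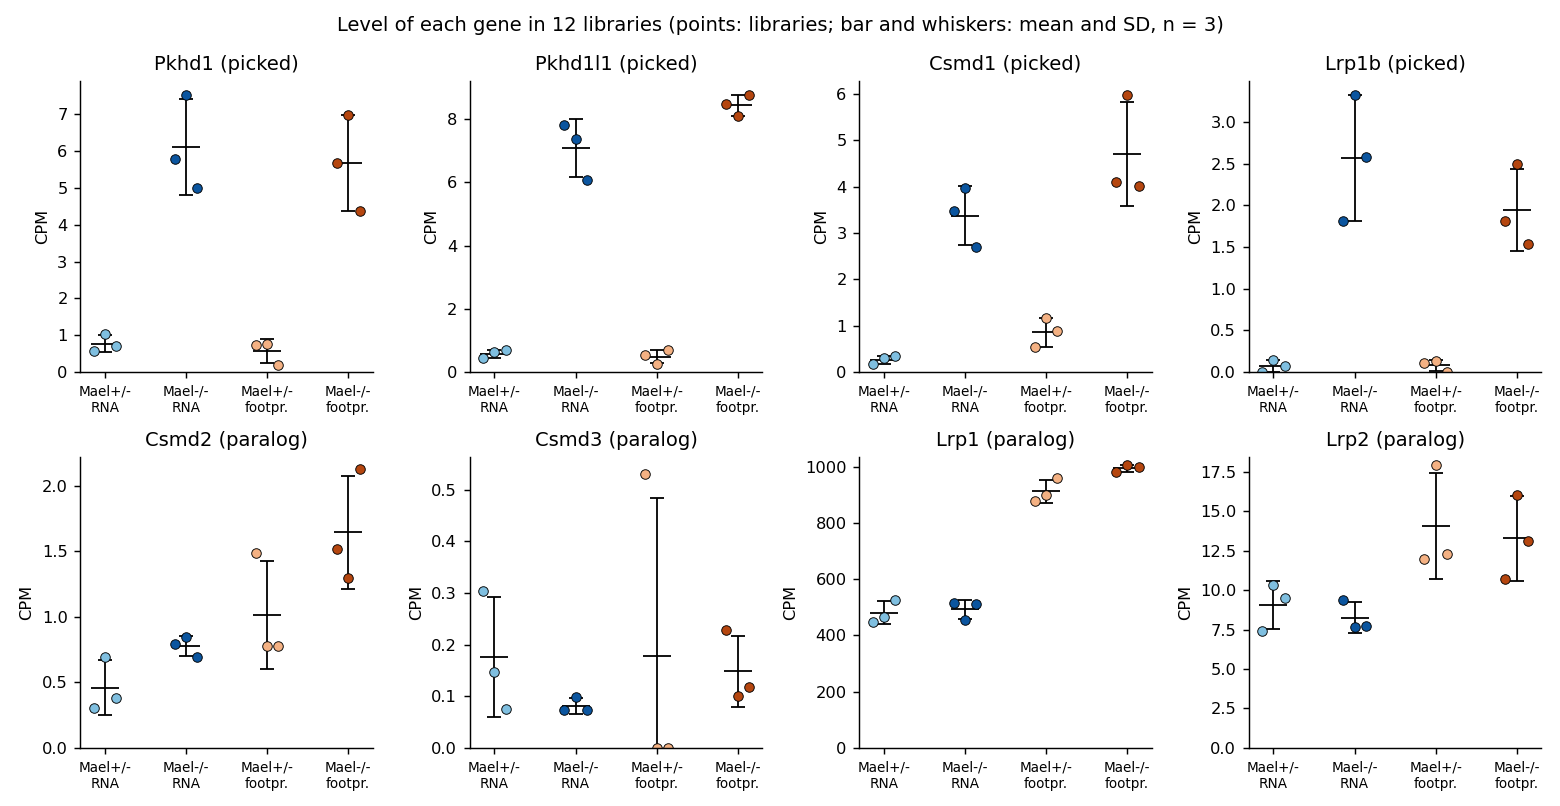
Each panel plots 1 gene, with its CPM on the vertical axis (from 0, and with its own scale) and the 4 groups on the horizontal axis. Points are libraries and the bar with whiskers is the mean with its SD (n = 3). In the upper row, of picked genes, all Mael-/- points lie above all Mael+/- points in both assays. In the lower row, of paralogs, the genotypes overlap except for Lrp1 footprints.

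Among 14647 genes tested in RNA with edgeR, 16 (0.109%) passed an adjusted p of 0.05 as higher in Mael-/- testes, and the 4 picked genes were among them. In footprints 7 of 13500 genes (0.0519%) did so, again with all 4. The rule used these contrasts, so nothing follows from that count. Ordered by fitted log2 fold change, Lrp1b was 7, Csmd1 11, Pkhd1l1 12 and Pkhd1 16 in RNA. In footprints Lrp1b was 3, Pkhd1l1 5, Pkhd1 7 and Csmd1 8. Without Mael+/- replicate 1 in both assays the RNA log2 fold changes were 2.79 for Pkhd1, 3.42 for Pkhd1l1, 3.38 for Csmd1 and 4.48 for Lrp1b. The footprint values were then 3.64, 4.05, 2.21 and 4.85.

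Csmd2 and Csmd3, the CUB and sushi paralogs, were as rare as Csmd1 in Mael+/- RNA and stayed rare in Mael-/- testes. Csmd2 had 7, 19 and 10 RNA counts in Mael+/- (0.304, 0.696 and 0.379 CPM) and 11, 17 and 19 in Mael-/- testes (0.796, 0.843 and 0.691 CPM). Its footprints were at 1.49, 0.774 and 0.781 CPM in Mael+/- and at 1.52, 1.30 and 2.13 CPM in Mael-/- testes. The genotypes overlapped in both assays. The log2 fold change of Csmd2 was 0.72 in RNA (95% interval -0.14 to 1.59, edgeR adjusted p 0.963) and 0.67 in footprints (-0.18 to 1.51, edgeR adjusted p 0.998). Both intervals reach past 1.5 on the log2 scale, so these depths do not show that Csmd2 stayed the same. Csmd3 had 7, 4 and 2 RNA counts in Mael+/- and 1, 2 and 2 in Mael-/- testes, and 5, 0 and 0 against 3, 1 and 1 footprint counts. It fell under the filter on low counts in both assays, and the summed ratio was 0.480 in RNA (95% counting interval 0.134 to 1.43) and 0.866 in footprints (0.199 to 3.76). Csmd3 thus had too few counts for a change to be detectable.

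Lrp1, a receptor that many cell types make, was abundant in all libraries. Its RNA was at 447.6, 465.3 and 525.8 CPM in Mael+/- and at 514.6, 454.1 and 511 CPM in Mael-/- testes. The log2 fold change was 0.04 (95% interval -0.17 to 0.25, edgeR adjusted p 0.985). Lrp1 footprints were at 877.3, 899.9 and 958.2 CPM in Mael+/- and at 980.1, 1004 and 998.4 CPM in Mael-/- testes, so that all Mael-/- libraries lay above all Mael+/- libraries. The same was so for 4.19% of all genes tested in footprints. The Lrp1 difference was small, 0.12 on the log2 scale (95% interval -0.08 to 0.33, edgeR adjusted p 0.998). Lrp2 RNA was at 7.38, 10.3 and 9.48 CPM in Mael+/- and at 9.41, 7.64 and 7.75 CPM in Mael-/- testes, and its footprints were at 12, 17.9 and 12.3 CPM in Mael+/- and at 10.7, 16.1 and 13.1 CPM in Mael-/- testes. The genotypes overlapped, with log2 fold changes of -0.14 (95% interval -0.52 to 0.24, edgeR adjusted p 0.983) in RNA and -0.08 (-0.53 to 0.37, edgeR adjusted p 0.998) in footprints.

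Of the paralogs, edgeR called 0 of 3 tested in RNA or in footprints, where 0.116% and 0.0593% of all genes were called in either direction. None had an unadjusted p under 0.05, as 5.39% of genes did in RNA and 4.33% in footprints. DESeq2, which also fitted Csmd3 and called 0.403% and 0.149% of all genes, called 0 of the 4 paralogs. A replicate block, which called 0.321% and 0.163% of all genes, also called 0 of 3. Between relatives, Csmd1 exceeded Csmd2 by 2.88 on the log2 scale in RNA and by 1.79 in footprints, and the latter was 1.16 without Mael+/- footprint replicate 1. Lrp1b exceeded Lrp1 by 4.93 and 4.40 and Lrp2 by 5.11 and 4.60. Without Mael+/- replicate 1 in both assays the paralogs' log2 fold changes were 0.51 for Csmd2, -0.0069 for Lrp1 and -0.27 for Lrp2 in RNA, and 1.05, 0.10 and -0.18 in footprints. The differences between relatives follow in part from how Csmd1 and Lrp1b were chosen and were not tested.

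**Figure D2:**
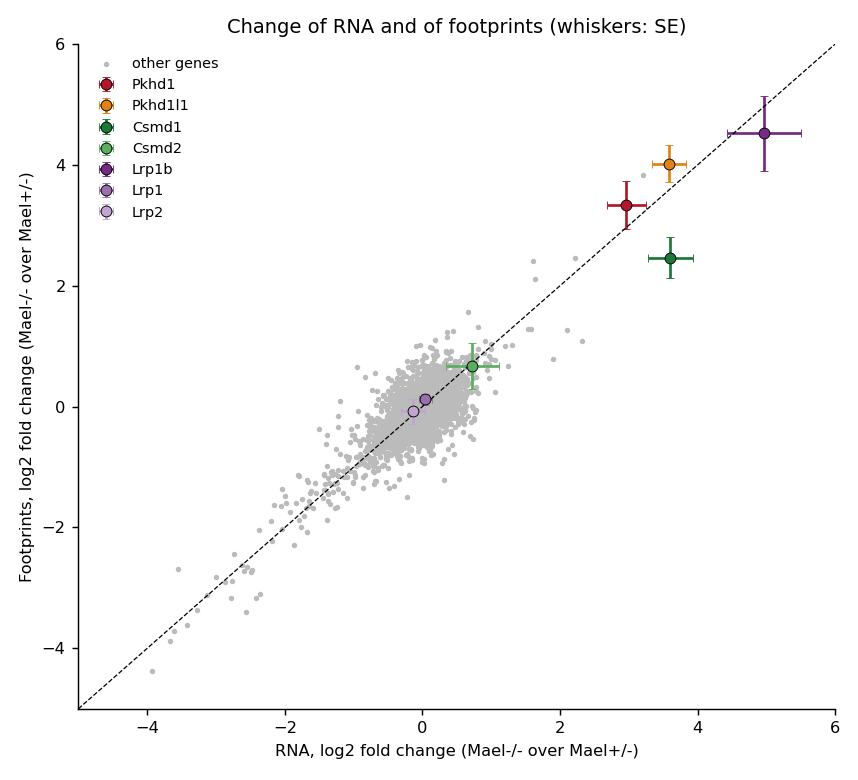
The log2 fold change of Mael-/- over Mael+/- in RNA (horizontal) and in footprints (vertical), with 13431 other genes in grey (7 more lie outside the axes) and the large genes in colour. Whiskers are SE and the dashed line marks equal change. Pkhd1, Pkhd1l1, Csmd1 and Lrp1b lie far to the upper right, with Csmd1 below the line, while Csmd2, Lrp1 and Lrp2 lie in or near the cloud.

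Levels were compared between genes per kb, of mRNA in RNA and of coding sequence in footprints. In Mael+/- RNA the order was Lrp1 at 32.2 ± 2.75, Lrp2 at 0.587 ± 0.0976, Pkhd1 at 0.0596 ± 0.0182, Pkhd1l1 at 0.0444 ± 0.00993, Csmd2 at 0.0339 ± 0.0154, Csmd1 at 0.0189 ± 0.00604, Csmd3 at 0.0135 ± 0.00896 and Lrp1b at 0.00503 ± 0.00497 CPM per kb (SD, n = 3). From Pkhd1 downwards each gene overlapped the next, while Lrp1 and Lrp2 were apart from the rest. Genes further apart in this order could still be separate. All Lrp1b values (at most 0.0099 CPM per kb) lay below all Csmd1 values (at least 0.0122 CPM per kb). In Mael-/- RNA, Lrp1 at 33.1 ± 2.28 CPM per kb was followed by Pkhd1l1 at 0.544 ± 0.0695, Lrp2 at 0.536 ± 0.0643 and Pkhd1 at 0.472 ± 0.101, whose values overlapped. Csmd1 at 0.237 ± 0.0450 and Lrp1b at 0.174 ± 0.0513 CPM per kb overlapped each other and lay below those 3. Csmd2 at 0.0573 ± 0.00572 and Csmd3 at 0.00625 ± 0.00118 CPM per kb came last, each apart from its neighbour. Both fibrocystin genes overlapped Lrp2 in Mael-/- RNA and were still low among all genes. In Mael-/- RNA the picked genes stood above between 17.9% (Lrp1b) and 25.8% (Pkhd1l1) of 17672 genes with counts, and in Mael+/- RNA above between 2.92% (Lrp1b) and 11.2% (Pkhd1). Lrp1 stood above 81.8% of genes in Mael+/- and 82.6% in Mael-/- RNA.

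In Mael-/- footprints the order was similar, with Lrp1 at 72.9 ± 0.903 and Lrp2 at 0.951 ± 0.193 CPM per kb of coding sequence. Pkhd1l1 at 0.662 ± 0.0265 CPM per kb lay below every Lrp2 value and above Pkhd1 at 0.467 ± 0.107, which overlapped Csmd1 at 0.440 ± 0.104. Csmd2 at 0.152 ± 0.0398 and Lrp1b at 0.141 ± 0.0357 CPM per kb overlapped, and Csmd3 was lowest at 0.0134 ± 0.00620.

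Shares within a family restate these levels, so those of Csmd1, Lrp1b, Pkhd1 and Pkhd1l1 rest on values by which these genes were selected and are a description. Csmd1 made up 29.0 ± 10.9% of the summed RNA CPM per kb of Csmd1, Csmd2 and Csmd3 in Mael+/- and 78.65 ± 1.55% in Mael-/- testes (SD, n = 3). Csmd2 made up 49.65 ± 11.6% and 19.3 ± 1.46%, and Csmd3 21.3 ± 16.5% and 2.09 ± 0.251%. No member led in all Mael+/- RNA libraries, since the Csmd2 share went as low as 38.7% and the Csmd3 share as high as 40.3%, while Csmd1 held at least 76.9% in each Mael-/- RNA library. In footprints the share of Csmd1 was 44.9 ± 20.9% and 72.1 ± 8.53%. Among Lrp1, Lrp1b and Lrp2, Lrp1 held 98.2 ± 0.287% of the RNA CPM per kb in Mael+/- and 97.9 ± 0.187% in Mael-/- testes, a share too near the whole to show the difference in Lrp1b, which held 0.0152 ± 0.0156% and 0.524 ± 0.188%. Pkhd1 and Pkhd1l1 were close to equal in both genotypes, with Pkhd1 at 56.9 ± 5.43% and 46.3 ± 4.06% of their RNA sum.

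**Figure D3:**
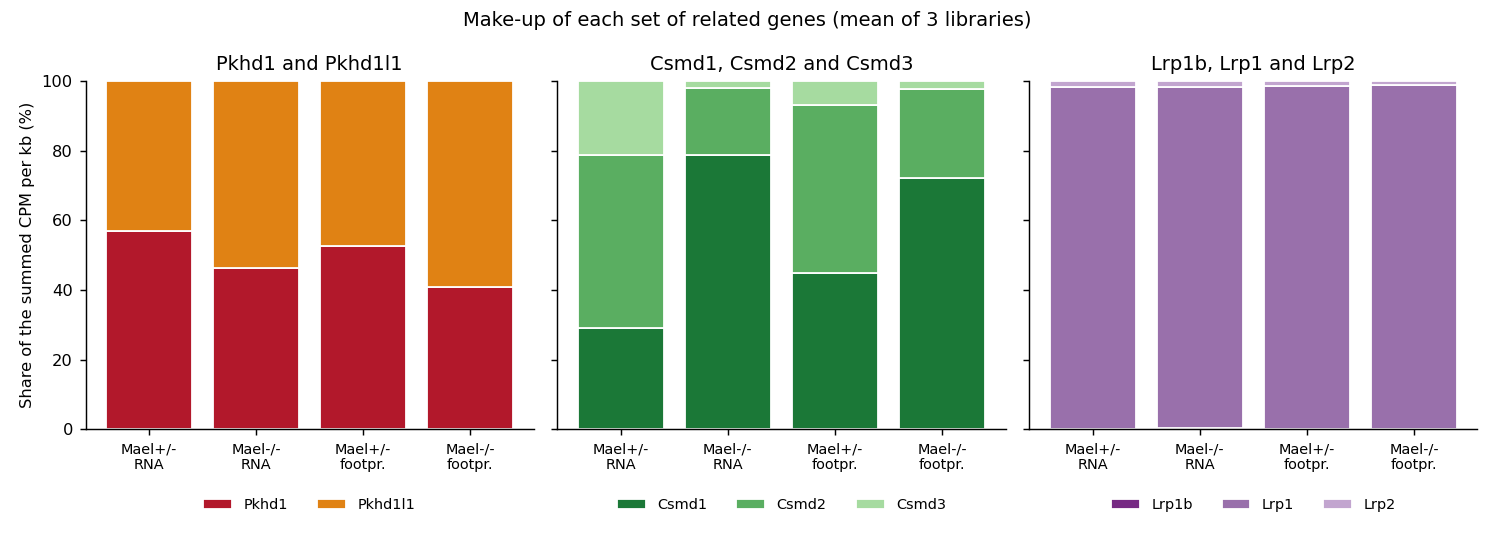
Stacked bars give the share of each gene in the summed CPM per kb of its relatives, as the mean of 3 libraries, for the 4 groups. The Csmd1 part grows from 29.0% to 78.65% between Mael+/- and Mael-/- RNA, whereas Lrp1 fills nearly the whole bar in all 4 groups and Lrp1b stays too thin to see.

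Whether footprints moved beyond RNA was asked as a change of translation efficiency, the difference between the footprint and RNA log2 fold changes in a single fit to the 12 libraries. The estimate was 0.39 for Pkhd1 (95% interval -0.75 to 1.53 on the log2 scale), 0.46 for Pkhd1l1 (-0.41 to 1.33) and -0.33 for Lrp1b (-3.17 to 2.51). For Csmd1 it was -1.12 (-2.17 to -0.08), with footprints gaining less than RNA, and -1.15 (-2.10 to -0.20) with each extract as a term. Without Mael+/- replicate 1 in both assays the estimates were 0.86 for Pkhd1, 0.65 for Pkhd1l1, 0.50 for Lrp1b and -1.15 for Csmd1. Over all other settings Pkhd1 ran from -0.06 (without Mael+/- footprint replicate 3) to 0.86 and Lrp1b from -1.16 (without Mael+/- RNA replicate 2) to 0.50, so neither has a settled direction, whereas Pkhd1l1 ran from 0.20 to 0.77 and Csmd1 from -1.37 to -0.88. Pkhd1, Pkhd1l1, Csmd1 and Lrp1b were selected on the RNA and footprint counts of these same libraries. Their estimates and intervals, those of Csmd1 included, are therefore a description and carry no test. The intervals are not adjusted for the number of genes, and the Csmd1 value turns on 21 RNA and 23 footprint counts in Mael+/- testes. The paralogs gave -0.05 for Csmd2 (-1.11 to 1.01), 0.08 for Lrp1 (-0.18 to 0.34) and 0.06 for Lrp2 (-0.54 to 0.66), each with an edgeR adjusted p of 0.9999. Without Mael+/- replicate 1 in both assays Csmd2 was at 0.55, Lrp1 at 0.10 and Lrp2 at 0.09. edgeR called 0 of 14386 genes (0%) in translation efficiency, with 78 at an unadjusted p under 0.05, and DESeq2 called 0.

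Within Mael-/- testes the ratio of footprints to RNA, each per kb, ordered the genes by how densely ribosomes covered their mRNA. The ratio was 1.04, 0.984 and 0.932 for Pkhd1 in extracts 1 to 3, above 8.60% of 12494 genes with enough counts, whose median was 1.78. Lrp1b was lower still, at 1.07, 0.803 and 0.636, above 4.73% of genes, and Pkhd1l1 was at 1.11, 1.12 and 1.48, above 19.9%. Csmd1 was near the middle at 1.57, 2.02 and 1.99 (53.8%), as were Lrp2 at 1.25, 2.32 and 1.87 (51.5%) and Lrp1 at 2.08, 2.41 and 2.13 (66.2%). Csmd2 was higher, at 2.38, 1.93 and 3.86 (77.9%), on 47 RNA and 51 footprint counts in all. Over the 3 extracts the percentile had an SD of 1.48 for Pkhd1, 5.39 for Lrp1b, 12.1 for Pkhd1l1, 12.2 for Csmd1, 16.4 for Csmd2 and 24.9 for Lrp2. In Mael+/- testes Csmd1 had ratios of 4.08, 5.29 and 3.44, all above its 3 Mael-/- ratios, although they rest on 21 RNA and 23 footprint counts. Lrp1 was at 2.14, 2.11 and 1.99 there. The places among genes depend on dividing by length, because RNA counts cover the whole mRNA and footprints the coding sequence alone, which is 94.2% of the mRNA in Pkhd1 and 74.9% in Csmd1. Without that division Pkhd1 stood above 47.7% of genes and Lrp1b above 34.0%.

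**Figure D4:**
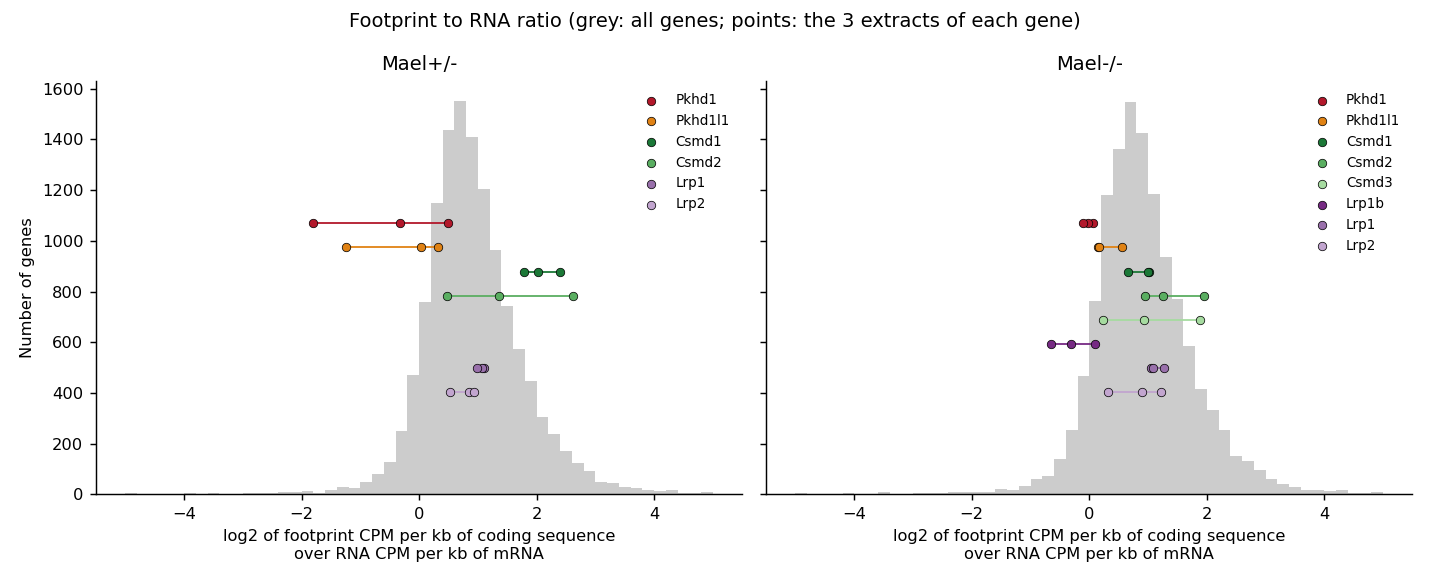
Grey bars count genes by the log2 of their footprint to RNA ratio per kb (mean of 3 extracts, values past 5 drawn at 5), in Mael+/- testes on the left and Mael-/- testes on the right. Coloured points are the 3 extracts of each large gene, at heights chosen only to separate them. Pkhd1 and Lrp1b lie at the low edge in Mael-/- testes, and Csmd1 lies further right in Mael+/- than in Mael-/- testes.

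Other long genes had medians near 0, with a larger share away from 0 than all genes in 3 of 4 groups. Leaving out the 8 genes, 176 genes spanning at least 500 kb were tested in RNA, with a median log2 fold change of 0.04, against -0.01 over all genes, and edgeR called 0 of them, where it called 0.116% of all genes. At an unadjusted p under 0.05 there were 16 (9.09%, against 5.39% of all genes), and 4.545% differed by over 2-fold, against 1.618% of all genes. DESeq2 called 2, Cdh12 and Robo2. Cdh12, a cadherin gene of 1149.5 kb best known from the brain, had 2, 2 and 0 RNA counts in Mael+/- and 14, 16 and 17 in Mael-/- testes (edgeR log2 fold change 3.78, SE 0.62, edgeR adjusted p 0.0848). Robo2, an axon guidance receptor gene of 1555 kb, was at 5.56, 4.47 and 5.88 CPM in Mael+/- and at 9.41, 16.2 and 10.8 CPM in Mael-/- RNA (edgeR log2 fold change 1.198, SE 0.22, edgeR adjusted p 0.157). Without Mael+/- RNA replicate 1, edgeR called Cdh12, Robo2 and Pde1c, the last as lower. Of 82 genes with coding sequences of at least 10 kb, edgeR called 0, with 11 at an unadjusted p under 0.05 (13.4%) and 4.878% beyond 2-fold, and their median was -0.05. DESeq2 called 1, the axonemal dynein gene Dnah6, at 2.04, 0.513 and 0.303 CPM in Mael+/- and 4.56, 3.37 and 4.08 CPM in Mael-/- RNA (edgeR log2 fold change 2.10, SE 0.53, edgeR adjusted p 0.585). Without Mael+/- RNA replicate 1 edgeR called Dnah6 too. In footprints edgeR called 0 of 143 and 0 of 81 genes of these length classes, where it called 0.0593% of all genes, and DESeq2 also called 0. At an unadjusted p under 0.05 there were 5 (3.50%) and 10 (12.3%), against 4.33% of all genes, and 0.6993% and 7.407% differed by over 2-fold, against 1.007%. Without Mael+/- footprint replicate 1 edgeR called Dnah6 there. A total of 12 other genes had an RNA log2 fold change at least as high as that of Pkhd1, with a median span of 56.85 kb and a median coding length of 1.98 kb. Of these, 1 spans over 500 kb and 0 have a coding sequence over 10 kb.

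**Figure D5:**
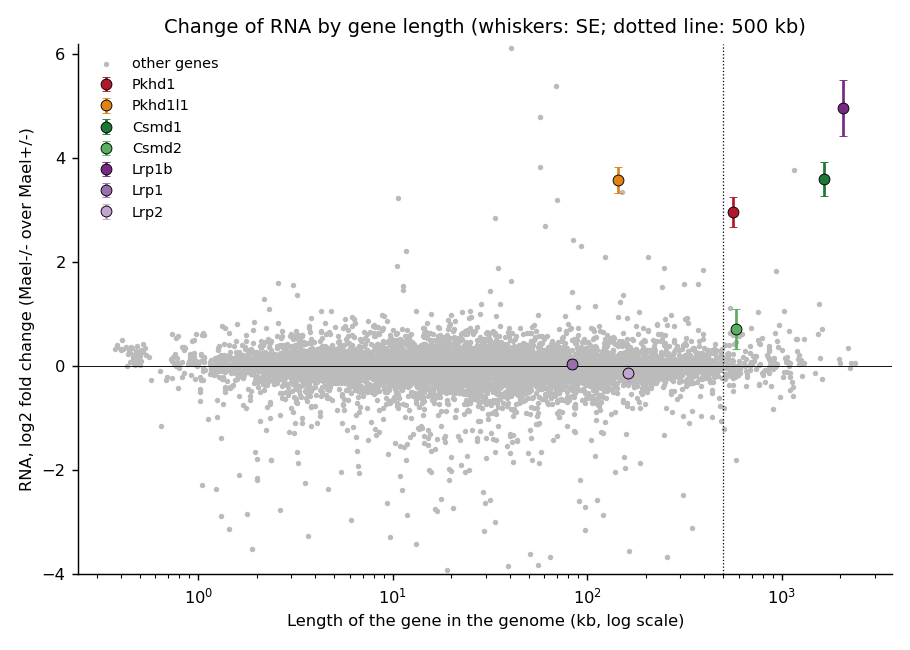
RNA log2 fold change of Mael-/- over Mael+/- (vertical) against the length of the gene in the genome in kb (horizontal, log scale), for 14579 other genes in grey (11 more lie outside the axes) and the large genes in colour with SE. Right of the dotted line at 500 kb most grey genes lie near 0, while Lrp1b, Csmd1 and Pkhd1 stand high, and Pkhd1l1 stands as high at 144 kb.

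Lists of relatives and partners of these proteins held 0 called genes, where edgeR called 0.116% of all genes in RNA and 0.0593% in footprints, so that lists of this size would seldom hold any. Of 28 tested LDL receptor relatives and partners, which include the chaperone gene Lrpap1 and the ligand gene Apoe, edgeR called 0 in RNA, with a median log2 fold change of 0.03. Lrpap1 was at 287 and 292.5 CPM in Mael+/- and Mael-/- RNA (means, n = 3). Of 27 tested CUB and sushi domain genes edgeR called 0, with a median of 0.07. Of 24 tested polycystic kidney disease and cilium genes edgeR called 0, with a median of -0.10. Pkd1 and Pkd2, which encode polycystins that share the cilium with fibrocystin, had RNA log2 fold changes of -0.06 (SE 0.08) and 0.12 (SE 0.11). In footprints edgeR called 0 of 27, 22 and 24 genes of the 3 lists. DESeq2 called 0 in both assays, and 2, 3 and 2 genes had an unadjusted edgeR p under 0.05 in RNA (7.14, 11.1 and 8.33%, against 5.39% of all genes) and 2, 1 and 1 in footprints (7.41, 4.55 and 4.17%, against 4.33%). Lrpap1, Apoe, Pkd1 and Pkd2 were named for their known roles with their values in view.

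Summed markers of other tissues that make these proteins overlapped between the genotypes, and the sums for kidney and neurons rest mostly on 1 gene each. The 8 markers of kidney tubule and bile duct, where Pkhd1 and Lrp2 are made, summed to between 9.35 and 18.5 CPM in Mael+/- and between 6.73 and 18.1 CPM in Mael-/- RNA. Aqp2 made up 11.8 and 11.6 CPM of the means, and Umod, Slc12a1, Slc34a1, Slc22a6 and Cldn16 were each at or under 0.563 CPM in both genotypes. The 11 markers of efferent duct and epididymis summed to between 5.61 and 6.45 CPM and between 4.99 and 6.73 CPM. Ovch2, Lcn5, Lcn9 and Rnase9 had 0 counts in all 4 groups. The 7 markers of neurons and glia, where Csmd1 and Lrp1b are best known, summed to between 332 and 452.5 CPM and between 352 and 455 CPM. Tubb3 alone had means of 331 and 355 CPM there, against 0.268 and 0.151 CPM for Snap25 and 1.09 and 1.46 CPM for Syt1. The range of each of these 3 sums overlapped between the genotypes, as it did for Sertoli, Leydig, spermatogonial and endothelial markers. Macrophage markers summed to 166.8, 155.5 and 259.2 CPM in Mael+/- and to 247.9, 240.4 and 243.8 CPM in Mael-/- RNA, overlapping through Mael+/- replicate 3 alone. All 7 macrophage markers tested had a positive log2 fold change in both assays, with a median of 0.34 in RNA and 0.22 in footprints. edgeR and DESeq2 called 0 of them, where edgeR called 0.116% of all genes in RNA and 0.0593% in footprints. At an unadjusted edgeR p under 0.05 there was 1 in RNA (14.3%, against 5.39% of all genes) and 0 in footprints (against 4.33%). The 6 peritubular myoid markers did not overlap in RNA, at between 890.6 and 934.7 CPM in Mael+/- and between 1004 and 1054 CPM in Mael-/- testes. All 6 had a positive log2 fold change in both assays, with a median of 0.20 in RNA and 0.25 in footprints. Of these 6 genes edgeR and DESeq2 called 0. At an unadjusted edgeR p under 0.05 there were 2 in RNA (33.3%, against 5.39% of all genes) and 0 in footprints. The part of macrophage and myoid cells in the picked genes' values was not tested. The 12 pachytene markers tested in RNA had a median log2 fold change of -1.38, with 0 called by edgeR or DESeq2. At an unadjusted edgeR p under 0.05 there were 8 (66.7%, against 5.39% of all genes). The 3 Mael-/- RNA sums were close to those of Mael+/- replicates 2 and 3, but Mybl1 and Tbpl1 made up 72.6 and 71.4 CPM of their mean. In footprints the Mael-/- sums, from 161.4 to 169.8 CPM, lay below the lowest Mael+/- sum of 175 CPM. The 10 markers tested there had a median of -1.40, with 0 called and 7 at an unadjusted edgeR p under 0.05 (70%, against 4.33% of all genes). Each of the 4 picked genes had its lowest RNA value in Mael+/- replicate 1, where pachytene markers were highest. These markers were highest there in footprints too, yet only Csmd1 had its lowest footprint value in that replicate. Pkhd1 was lowest in Mael+/- footprint replicate 3 (0.195 CPM), Pkhd1l1 in replicate 2 (0.258 CPM) and Lrp1b in replicate 3 (0 CPM). All these values rest on few counts, and a link to the markers was not tested.

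The picked genes shared a pattern over the 12 libraries, as follows from their being picked for a rise in these libraries. For each large gene the 3 genes with the highest Pearson r of log2 CPM, centred within each assay, were taken from 12537 genes averaging 20 counts per library or more in both assays. Csmd2, Csmd3 and Lrp1b had fewer and so could not be listed as the nearest of another gene. Pkhd1, Pkhd1l1, Csmd1 and Reg2 reached that average in footprints only through their Mael-/- libraries. The genotype difference is part of every such pattern, and libraries of an extract share their source, so r is a description. For Lrp1b the nearest were Pkhd1 (r = 0.983), Csmd1 (0.979) and Reg2 (0.964), and for Pkhd1 they were Sfi1 (0.979), Reg2 (0.969) and Csmd1 (0.965). For Pkhd1l1 they were Reg2 (0.976), Pkhd1 (0.961) and Csmd1 (0.960), and for Csmd1 they were Pkhd1, Pkhd1l1 and Hist1h4a (0.960). Lrp1b itself had an r of 0.983 with Pkhd1, 0.979 with Csmd1 and 0.961 with Pkhd1l1, in each case above the first or second gene listed. Reg2, a secreted lectin-like gene of only 2.94 kb on chromosome 6, had 0 counts in the 3 Mael+/- RNA libraries and 38, 102 and 74 in the Mael-/- ones. Sfi1, a centrosomal gene of 71.5 kb, was at 28.7, 28.7 and 26.3 CPM in Mael+/- and at 48.2, 44.7 and 44.2 CPM in Mael-/- RNA. Hist1h4a, 1 of many near-identical histone H4 genes between which reads are uncertain, was at 127.1, 132.4 and 133.7 against 166.5, 173.8 and 160.7 CPM.

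The paralogs were followed by other genes. The nearest to Lrp1 were Glt25d1 (r = 0.933), the giant cadherin gene Fat1 (0.932) and Kif21a (0.919). For Lrp2 they were Dst (0.945), which encodes a cytoskeletal linker, Ppp1r16b (0.940) and Srl (0.940). For Csmd2 they were Plk2 (0.901), Bloc1s5 (0.882) and Hhex (0.877), and for Csmd3, whose counts were very few, Nup54 (0.957), Srpk1 (0.950) and Iqck (0.949). Csmd2 itself had an r of 0.742 with Pkhd1, 0.745 with Pkhd1l1, 0.633 with Csmd1 and 0.704 with Lrp1b, against 0.409 and -0.117 for Lrp1 and Lrp2 with Pkhd1.

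Genes on the opposite strand overlap exons of 3 of the 8 genes, which matters because no source used here says whether counting used strand. The non-coding gene 4930486I03Rik covers 208 exon bases of Pkhd1 and Gm51820 covers 393 of Lrp1, and neither has a row in the count table. CK137956 covers 256 exon bases of Csmd2 and had 5, 0 and 0 counts in Mael+/- RNA and 0 in Mael-/- RNA. Its footprint counts were 9, 3 and 1 in Mael+/- and 1, 2 and 1 in Mael-/- testes, with the 9 in replicate 1, where Csmd2 had 14. Pkhd1l1, Csmd1, Csmd3, Lrp1b and Lrp2 have no overlap of exons with other genes in the annotation.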

How the data were processed

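The submitters' labels name mm10 as the build, and tools STAR 2.6.0c, Bowtie 1.2.2, featureCounts of Subread 1.6.4 and DESeq2 1.24.0. Per the study's methods, stranded total RNA libraries were depleted of rRNA, and footprints were made with micrococcal nuclease. The authors clipped linkers, removed rDNA reads, aligned the rest with STAR and deposited raw counts per gene, over the whole mRNA for RNA and over coding sequence for footprints. Whether counting used strand, which annotation it used and whether duplicate molecules were collapsed is not given in the sources used here, so intervals cover the spread or counting error of the deposited counts only. The authors' tables of fold changes and p-values from DESeq2 were not used, nor were the rows of 5138235 repeat copies.

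Gene totals were the library sizes. edgeR 4.0.16 in R 4.3.3 fitted quasi-likelihood models to all 20620 gene rows, with TMM within each assay, filterByExpr and Benjamini-Hochberg adjustment, and called genes at an adjusted p under 0.05. Genotypes were compared over 6 libraries of an assay, and translation efficiency as the interaction over 12. In simulated counts of 14647, 13500 and 14386 genes, the RNA test recovered 98% of 2-fold changes with 2.94% false calls, the footprint test 92% with 4.95%, and the interaction 33% with 0%. With each extract as a term the interaction recovered 64% with 2.99%. Changes were placed only in genes averaging 20 counts per library or more, with a single dispersion for all genes and no outlying library. Csmd2 averaged fewer counts, so these shares do not describe its tests. RNA and footprints of an extract deviated together in all 6 extracts (r from 0.257 to 0.799 over 12181 genes). The main interaction fit had no term for this pairing, and the fit with each extract as a term was an alternative. Ratio percentiles and likeness were taken over genes averaging 20 counts per library or more, and the members were placed among them whatever their own counts, and likeness used log2(CPM + 0.5). RefSeq names matched 19292 rows by symbol and 1191 by an older symbol, and 137 rows did not match.

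The members, gene lists, tests and alternatives were chosen with earlier results of these data known. Named genes are the 8 members, Mael, genes of a list that were called (at most 5 a list and contrast), the 3 genes most like each member and genes overlapping their exons, and other names were added with their values in view. Alternatives were DESeq2 1.42.0, median-of-ratios size factors, no filter on low counts, each replicate left out, Mael+/- replicate 1 left out of both assays, a replicate block and, for ratios, no division by length.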

Additional observations from a re-analysis of the deposited data

How the results depend on the processing

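Of 524 values under other settings, 479 held in direction and call, or shifted by no more than replicates did. The 524 are not independent. In RNA and in footprints, leaving Mael+/- replicate 1 out of both assays repeats the fit without that library, and both are counted. Values of the picked genes and counts of called genes that stayed at 0 are also included. For translation efficiency of the picked genes the allowed shift was the SE of the fit. A turn of sign within it counted as held, as for Lrp1b and Pkhd1. Under all settings 0 paralogs were called. The labels do not say whether same-numbered Mael-/- and Mael+/- libraries belong together. Their deviations correlated at -0.01 to 0.27 in RNA and at 0.06 to 0.25 in footprints. The highest of these were near the values for RNA and footprints of the Mael-/- extracts (0.26 to 0.27), so pairing by number was not settled. In RNA the replicate block called 1 gene spanning at least 500 kb (Cdh12) and 2 with long coding sequences (Dnah6, and Dnah7a as lower). In footprints it called 1 (Dnah7a), against 0 in the main fit. It raised the RNA calls over all genes from 17 to 47 and the footprint calls from 8 to 22, and it changed no call of a paralog. DESeq2 called 2 and 1 of these long genes in RNA. Without Mael+/- replicate 1 in both assays the calls were 3 and 1 in RNA and 1 in footprints (Dnah6), Lrp1 in RNA was -0.0069, Csmd2 in translation efficiency was 0.55, and Csmd1 exceeded Csmd2 in footprints by 1.16. Leaving out single replicates, these counts ran from 0 to 3 (long span) and 0 to 1 (long coding sequence) in RNA, and 0 to 1 (long coding sequence) in footprints. The log2 fold change of Lrp1b was between 4.48 and 5.82 in RNA and between 3.93 and 4.96 in footprints, its excess over Lrp1 from 4.49 to 5.81 and from 3.77 to 4.85, its excess over Lrp2 in RNA from 4.75 to 5.86, and that of Csmd1 over Csmd2 in footprints from 1.16 to 2.18. Lrp1 in RNA ran from -0.0069 to 0.11, Lrp2 in footprints from -0.24 to 0.12, and translation efficiency from -0.48 to 0.34 for Csmd2 and from -0.10 to 0.27 for Lrp2, so the directions of these small changes are not fixed. The causes were not tested. Without division by length, the footprint to RNA ratio stood above 33.7% and 47.7% of genes for Pkhd1 (Mael+/- and Mael-/-), 43.25% and 70.4% for Pkhd1l1, 98.2% and 80.3% for Csmd1, 92.7% and 93.4% for Lrp1, 86.5% and 88.1% for Lrp2, and in Mael-/- testes 94.6% for Csmd2 and 34.0% for Lrp1b. Counts under 30 per Mael+/- library limit all 4 picked genes.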

Other observations

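The genes next to the picked genes had small log2 fold changes. The 3 nearest tested genes on each side, 24 for Pkhd1, Pkhd1l1, Csmd1 and Lrp1b together, had RNA log2 fold changes from -0.89 to 0.30 with a median of 0.01, and edgeR called 0 of 24 in RNA and 0 of 21 tested in footprints, where it called 0.116% and 0.0593% of all genes. DESeq2 called 0 in both, and 1 had an unadjusted edgeR p under 0.05 in RNA and 0 in footprints. Pkhd1l1 stands among close neighbours, with Ebag9 17.8 kb beyond its end (RNA log2 fold change -0.02) and Eny2, a transcription co-activator subunit, 19.1 kb before its start (-0.12). Around Pkhd1, Mcm3, a subunit of the replicative helicase, lies 185 kb away (0.08). Around Csmd1 the nearest were Kbtbd11 at 859 kb (-0.11) and Mcph1 at 1060 kb (0.01), and around Lrp1b they were Arhgap15 at 1095 kb (0.30) and Ppp6c at 1369 kb (0.01). Of the 24 such genes of the paralogs, 1 was called, Pkhd1l1 itself, which lies 2979 kb from Csmd3 on chromosome 15. The neighbours were chosen with results known and are named for their nearness.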
